A study of Mus musculus with 20 samples.

Results

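Messenger RNA of the outer eyecup (RPE–choroid) of C57BL/6 mice was sequenced (C57BL/6J for the *Stra6*-/- line, by the methods), and the 10 enzymes of glycolysis described here were *Hk1*, *Hk2*, *Gpi1*, *Pfkl*, *Aldoa*, *Aldoc*, *Pgk1*, *Pkm*, *Ldha* and *Ldhb*. They were taken by gene symbol from the deposited table, which has 24411 genes, and all 10 were present and were kept among the 18807 genes tested. WT mice and mice without the retinol transporter STRA6 (*Stra6*-/-) were fed standard chow until weaning and then a vitamin A sufficient (VAS, 4 IU/g) or vitamin A deficient (VAD, 0 IU/g) diet for 12 weeks. The groups were VAS WT, VAD WT, VAS *Stra6*-/- and VAD *Stra6*-/-, each with 5 libraries, and by the study's methods 1 library held both eyecups of a mouse after the neural retina was peeled off with dispase. The *Stra6*-/- deletion is present in every cell, so that it is not restricted to the RPE, and the WT mice were purchased whereas the *Stra6*-/- mice were bred in house.

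Glycolysis splits glucose into pyruvate in the cytosol. Hexokinases trap glucose as glucose 6-phosphate, glucose phosphate isomerase and phosphofructokinase prepare it for cleavage by aldolase, phosphoglycerate kinase and pyruvate kinase regain ATP, and lactate dehydrogenase interconverts pyruvate and lactate. In the outer eye this pathway is divided between neighbouring cells. Photoreceptors convert most of their glucose to lactate even when oxygen is present, whereas the RPE lets glucose from the choroid pass to them and takes up lactate as a fuel for its mitochondria. Isozymes differ with this division: subunits encoded by *Ldha* favour the formation of lactate, those encoded by *Ldhb* its oxidation, and *Hk2* is the hexokinase of photoreceptors and muscle, whereas *Hk1* is found in most tissues.

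The values are reads per gene divided by a size factor of the library and are called normalized values. Reads per library ranged from 13331903 to 21878614. *Stra6* itself had normalized values of 2414 to 2742 in VAS WT, 693, 697 and 669 in VAD WT replicates 1, 3 and 5, 1340.1 and 1529 in VAD WT replicates 2 and 4, 564 to 694 in VAS *Stra6*-/- and 1973 to 2393 in the libraries labelled as VAD *Stra6*-/-. In the last group *Stra6* was therefore above VAD WT, against the label. VAD WT replicates 1, 3 and 5 overlapped VAS *Stra6*-/-, so that *Stra6* does not set these 3 libraries apart from the knockout, and the RPE markers given below were low in them as well. Both VAD groups are named below only as they were labelled, and each direction drawn from them is a direction between libraries with those labels. Replicates 2 and 4 of VAD WT stood apart from replicates 1, 3 and 5. *Xist*, the long RNA that silences an X chromosome in female cells, was at 10912 and 11767 in those 2 libraries and at 174, 194 and 234 in the other 3. It ranged over 7.69 to 38.4 in VAS WT, 15320.2 to 18052 in VAS *Stra6*-/- and 3569.8 to 4279.6 in the libraries labelled as VAD *Stra6*-/-. The Y-linked *Ddx3y* ranged over 981 to 1193, 0 to 1.02 and 741 to 969.7 in the same 3 groups, and in VAD WT it was at 75.2 and 80.5 in replicates 2 and 4 and at 1041, 1064 and 1133 in the other 3. Both transcripts were thus present in each of the libraries labelled as VAD *Stra6*-/- and in VAD WT, where n = 5 stands for 5 libraries and whether each held RNA of a single animal could not be settled from the values. Sex-linked transcripts thus moved with the groups, and their part in the results was not tested.

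Markers of the tissue and of its neighbours also moved with the groups. The summed value of 12 RPE markers was 131977 to 148988 in VAS WT, 42454 to 45279 in VAD WT replicates 1, 3 and 5, 77858 to 78560.2 in replicates 2 and 4, 140249 to 148383 in VAS *Stra6*-/- and 551705 to 601089 in the libraries labelled as VAD *Stra6*-/-. For 14 markers of surface epithelium (cornea and conjunctiva) the sums were 597346 to 726529.6, 1110429 to 1144417, 386654 to 388630.1, 884023 to 916461 and 23044 to 30283 in the same order, and for 12 rod markers 146566 to 166727, 128222 to 132131, 327781 to 330015, 163926 to 177076 and 89948 to 104063. The 15 skeletal muscle markers summed to 15232 to 18623, 4709 to 4949.7, 17052 to 18152, 38198 to 43201 and 24415 to 29916. Markers of sclera and fibroblasts (10 genes) summed to 45259 to 48068, 52586 to 54623, 159196 to 163189, 44232 to 45639 and 213496 to 225163, and those of endothelium (10 genes) to 12302 to 13129.7, 7651 to 7782, 20311 to 21004, 11812 to 12885 and 16434 to 17074. Both sums were highest in VAD WT replicates 2 and 4 and in the libraries labelled as VAD *Stra6*-/-, the same 7 libraries in which *Hk1*, *Pfkl*, *Aldoa* and *Pgk1* were highest. This was not particular to sclera and endothelium. Erythrocyte markers (6 genes) summed to 44924 to 45441 and 21917 to 31284 in these 2 sets, against at most 14681 in the other libraries. Inner retina and Müller glia markers (12 genes) summed to 46860 to 48795 and 50271 to 56932, against at most 44748. None of the RPE, surface epithelium, rod, sclera or endothelium markers was at 0 throughout a group. Of the muscle markers, *Myh13* was at 0 in all VAD WT libraries. A sum is weighted to its most abundant genes, and single markers did not all move with it. Of the 14 surface epithelium markers, 4 were called higher and 3 lower in VAS *Stra6*-/- against VAS WT. In VAD WT against VAS WT, 0 were higher and 5 lower. For inner retina and Müller glia, 1 of 12 was higher and 6 were lower in VAS *Stra6*-/- than in VAS WT, although their sum was higher. Fewer cells of a type and less RNA per cell cannot be told apart in such bulk samples, and the part of these shifts in the results on glycolysis was not tested.

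Promoter windows of the 10 enzymes (250 bases before to 50 after each start site, RefSeq, GRCm38.p6) were searched for ACGTG on either strand. ACGTG is a form of the core of the hypoxia response element, which binds the HIF factors that regulate many glycolytic genes. The form GCGTG was not searched, so that the counts below cover ACGTG only. RefSeq gives 16 windows for the 10 genes, and 8 windows of 7 genes held a match, against 19.6% of all 32851 windows and 21.8% of all genes. The matching windows of *Aldoa*, chr7:126799129-126799428 and chr7:126799205-126799504, overlap, so that a single site may be counted in both. The 250 bases upstream of 3 starts are shown because *Ldha* and *Ldhb* moved in opposite directions between the groups and *Hk2* was the hexokinase called higher in VAS *Stra6*-/-: *Ldha* at chr7:46845554-46845803 on the plus strand, *Ldhb* at chr6:142507958-142508207 on the minus strand and *Hk2* at chr6:82774455-82774704 on the minus strand. They run 5′ to 3′ along the gene, with matches to ACGTG or its reverse complement CACGT in capitals.
Ldha: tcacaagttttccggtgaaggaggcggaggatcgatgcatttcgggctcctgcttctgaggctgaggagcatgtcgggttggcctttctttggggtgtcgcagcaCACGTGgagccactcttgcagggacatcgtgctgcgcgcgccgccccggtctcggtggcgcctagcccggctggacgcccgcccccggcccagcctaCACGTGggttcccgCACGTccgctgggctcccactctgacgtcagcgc
Ldhb: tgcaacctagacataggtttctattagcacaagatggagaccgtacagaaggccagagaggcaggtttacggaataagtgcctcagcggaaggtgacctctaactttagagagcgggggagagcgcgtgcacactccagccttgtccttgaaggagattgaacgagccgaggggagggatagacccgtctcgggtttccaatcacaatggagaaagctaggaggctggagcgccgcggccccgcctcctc
Hk2: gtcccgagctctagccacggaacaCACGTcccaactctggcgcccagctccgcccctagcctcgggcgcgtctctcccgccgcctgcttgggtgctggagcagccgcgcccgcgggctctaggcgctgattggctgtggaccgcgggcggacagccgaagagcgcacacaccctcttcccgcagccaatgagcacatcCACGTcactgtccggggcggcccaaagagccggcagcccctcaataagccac
The *Ldha* window held 5 matches, 4 of them overlapping in pairs within 2 copies of CACGTG, which is also an E-box and is present in 7.15% of all windows. *Hk2* had 2 matches to ACGTG and *Ldhb* none, although the *Ldhb* sequence shown holds GCGTG, the form that was not searched. These are matches of letters in a window of one of the starts that RefSeq lists (2 for *Ldha*, of which the window with more matches is shown), and binding was not measured.

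Levels of different enzymes were compared per kilobase of transcript (normalized value divided by the median length of the gene's coding transcripts in GENCODE vM21, in kilobases). In VAS WT, *Aldoa* was highest at 18605 ± 555 per kb (SD, n = 5), followed by *Pkm* at 10513 ± 325, *Ldha* at 6505 ± 142 and *Gpi1* at 3099 ± 109.6. *Pgk1* at 2781 ± 150.1 and *Ldhb* at 2716 ± 155 came next, and their libraries overlapped, so that their order lies within the spread. *Aldoc* followed at 2291 ± 125, *Hk1* and *Pfkl* overlapped at 823 ± 79.8 and 767 ± 39.5, and *Hk2* was lowest at 204 ± 19. VAS *Stra6*-/- had the same order except that *Pgk1*, at 3178 ± 108, and *Gpi1*, at 3063 ± 63.7, exchanged places with overlapping libraries. In the libraries labelled as VAD *Stra6*-/-, *Ldhb* ranked below *Aldoa* and *Pkm* at 8235 ± 925 per kb, and *Ldha* was at 4849 ± 152, a level that overlapped *Pgk1* at 4945 ± 204. *Aldoa* and *Pkm* remained first and second in that group, at 30991 ± 1425 and 10222 ± 525, and *Hk2* last at 240.3 ± 5.99. VAD WT had wide spreads, such as 18600.4 ± 5983 for *Aldoa* and 478 ± 469 for *Hk2*, and there *Aldoc* (2086 ± 100.4) and *Ldhb* (1872 ± 704) overlapped.

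**Figure D1:**
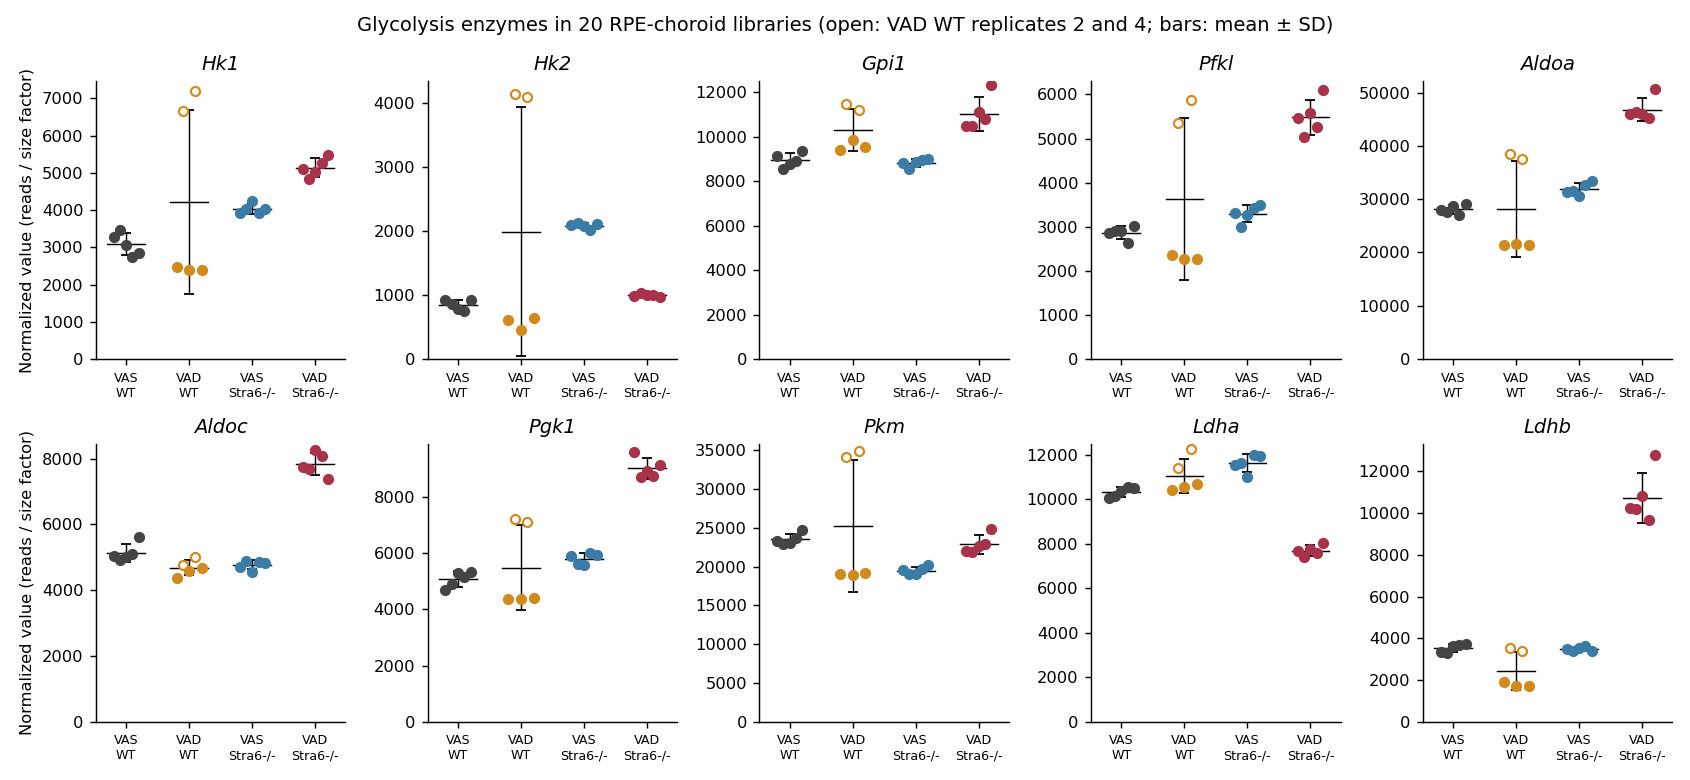
Normalized values (reads divided by size factor, linear axes from 0) of the 10 enzymes in each of the 20 libraries, with the mean and SD of each group as a bar. *Ldhb* lies between 9645 and 12762 in the libraries labelled as VAD *Stra6*-/- and at 3717 or less in all others, *Ldha* is lowest in the same libraries, and the open points (VAD WT replicates 2 and 4) lie apart for *Hk1*, *Hk2*, *Pfkl*, *Aldoa*, *Pgk1*, *Pkm* and *Ldhb*.

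The first comparison set VAS *Stra6*-/- against VAS WT. All 5 VAS WT libraries had the sex-linked transcripts of males (*Xist* 7.69 to 38.4, *Ddx3y* 981 to 1193). All 5 VAS *Stra6*-/- libraries had those of females (*Xist* 15320.2 to 18052, *Ddx3y* 0 to 1.02). Genotype and sex therefore cannot be told apart in this comparison. *Hk2* was 2.46-fold higher in VAS *Stra6*-/- than in VAS WT and *Ldha* 1.13-fold higher, and these were the 2 enzymes that rose (limma on log2(value + 1), adjusted p under 0.05 over 18807 genes). The call for *Hk2* was lost on leaving out any 1 of the 10 libraries compared, and that for *Ldha* on leaving out any of 8 of them (all but replicate 4 of VAS WT and replicate 3 of VAS *Stra6*-/-), which left 0 or 1 enzymes called; TMM rescaling and edgeR also left 1. None fell by limma, edgeR or DESeq2, nor at an unadjusted p under 0.05 (0 enzymes each). Of all genes tested, 15.9% were called higher and 10.8% lower, so 2 of 10 is near the background. Among the 4021 genes with a mean value of at least 1000, 31.8% were called higher and 11.4% lower. The median log2 fold change of the 10 enzymes was 0.18, against 0.017 over all genes. The libraries of both groups did not overlap for 7 enzymes: *Hk1*, *Hk2*, *Aldoa*, *Pgk1* and *Ldha* were higher and *Aldoc* and *Pkm* lower in all 5 libraries, where 32.5% of all genes had such separate ranges. The fit shares 1 estimate of spread over the 4 groups, and VAD WT replicates 2 and 4 widen it; without them the number called was 8 (6 higher and 2 lower), and with these 2 groups alone it was likewise 8 (6 higher and 2 lower).

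The deficient diet in WT mice was compared next. Here the 2 sets of VAD WT libraries went in opposite directions for *Hk1*, *Hk2*, *Pfkl*, *Aldoa*, *Pgk1* and *Pkm*. In both sets *Gpi1* and *Ldha* lay on the high side of VAS WT, and *Aldoc* and *Ldhb* on the low side. With all 5 libraries only *Ldhb* was called (a call lost without VAD WT replicate 1, 3 or 5, with only these groups in the fit, and by edgeR), with a mean of 2441 ± 917 (SD, n = 5) in VAD WT against 3541 ± 203 in VAS WT. In this comparison 3.29% of all genes were called higher and 5.5% lower, and the median log2 fold change was 0.085 for the 10 enzymes and 0.0017 for all genes. Among the genes with a mean value of at least 1000, 6.59% were called higher and 10.9% lower. *Gpi1* was the 1 enzyme with separate ranges, higher in VAD WT, against 6.34% of all genes, and did not pass the test (adjusted p = 0.0856). None was called higher by limma or edgeR, and *Gpi1* by DESeq2 and at an unadjusted p under 0.05 (1 enzyme each). Without replicates 2 and 4 the number called was 8 (0 higher and 8 lower), and with only those 2 libraries 8 (8 higher and 0 lower). *Hk2* gave the widest contrast, with a log2 fold change against VAS WT of -0.59 (adjusted p = 2.30e-05, limma) from replicates 1, 3 and 5 and of 2.28 (adjusted p = 4.56e-14) from replicates 2 and 4. The value given for the whole group is thus the mean of libraries that disagree, and no direction for VAD WT is drawn from it.

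**Figure D2:**
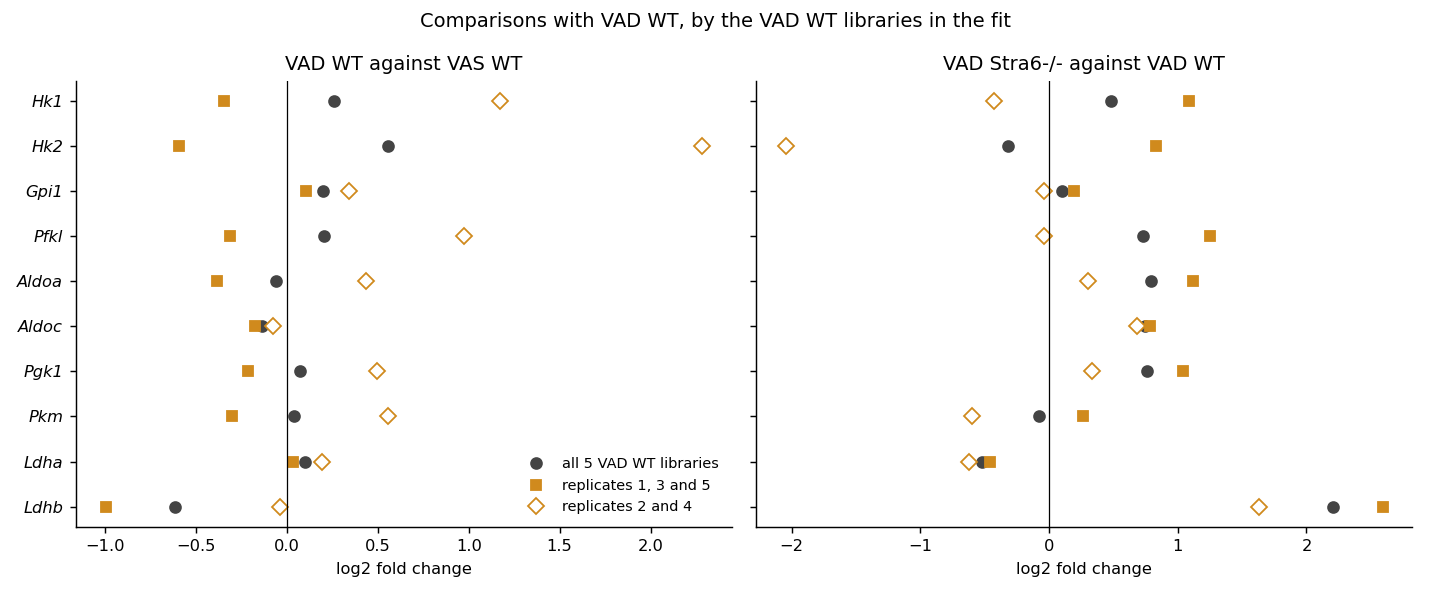
Log2 fold changes (horizontal axis) of the 10 enzymes in both comparisons that involve VAD WT, fitted with all 5 VAD WT libraries, with replicates 1, 3 and 5, and with replicates 2 and 4. Against VAS WT, *Hk2* moves from -0.59 to 2.28 and *Hk1* from -0.35 to 1.17 between these sets; *Ldhb* and *Ldha* keep their sides of 0 in both comparisons.

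In mice labelled *Stra6*-/- the deficient diet was set against the sufficient one. Sex-linked transcripts separated these groups too. *Xist* was 15320.2 to 18052 and *Ddx3y* 0 to 1.02 in VAS *Stra6*-/-. In the libraries labelled as VAD *Stra6*-/- they were 3569.8 to 4279.6 and 741 to 969.7. *Stra6* was 564 to 694 and 1973 to 2393 in the same order. Diet therefore cannot be told apart from these differences in this comparison. *Ldhb* changed most, being 3.08-fold higher in the libraries labelled as VAD *Stra6*-/- than in VAS *Stra6*-/-, and *Ldha* was 1.51-fold lower. *Pfkl*, *Aldoa*, *Aldoc*, *Pgk1* and *Gpi1* also rose, between 1.25-fold for *Gpi1* and 1.66-fold for *Pfkl*, so that 6 enzymes rose and 1 fell. Of all genes, 24.4% were called higher and 28.8% lower. Among the 4021 genes with a mean value of at least 1000, 36.4% were called higher and 39% lower. The median log2 fold change was 0.45 for the enzymes and -0.066 for all genes. None of the 10 enzymes overlapped between the groups, with 8 higher (the 6 named, *Hk1* and *Pkm*) and 2 lower (*Ldha* and *Hk2*), where 51.3% of all genes had separate ranges. *Hk2*, at 998 ± 24.9 against 2082 ± 39.7 (SD, n = 5 each), narrowly missed the threshold (adjusted p = 0.0512, limma), and without VAD WT replicates 2 and 4 in the shared spread all 10 were called, 8 higher and 2 lower.

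Both genotypes were then compared on the deficient diet. *Ldhb* was 4.4-fold higher in the libraries labelled as VAD *Stra6*-/- than in VAD WT, *Pfkl*, *Aldoa*, *Aldoc* and *Pgk1* rose as well, and *Ldha* fell, with a ratio of means of 0.695. Over all genes 26.2% were called higher and 29.6% lower, and the median log2 fold change was 0.61 for the enzymes and -0.050 for all genes. Among the genes with a mean value of at least 1000, 41.3% were called higher and 36.4% lower. Ranges were separate for 5 enzymes, *Aldoa*, *Aldoc*, *Pgk1* and *Ldhb* on the high side and *Ldha* on the low side, against 37.4% of all genes. Without VAD WT replicates 2 and 4 the number called was 10 (9 higher and 1 lower), and with only those 2 as VAD WT it was 8 (4 higher and 4 lower). In the latter fit *Pfkl* no longer differed detectably (log2 fold change -0.038, adjusted p = 0.691, limma), whereas *Ldhb*, *Ldha*, *Aldoa*, *Aldoc* and *Pgk1* kept their directions and passed in both. This comparison shares its libraries with the diet comparison in *Stra6*-/- mice and with that in WT mice, so that they are not independent.

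The interaction tested whether the difference between the diets was the same in both genotypes, as labelled. By the labels, the difference of VAD from VAS was more positive in *Stra6*-/- than in WT for *Ldhb*, *Aldoc*, *Aldoa* and *Pgk1*. It was more negative for *Ldha* and *Hk2* (4 positive and 2 negative calls). Positive and negative calls made up 19.5% and 24.8% of all genes, and 30.5% and 37.3% of those with a mean value of at least 1000. The largest interaction was that of *Ldhb*, at 2.23 (SE 0.23, adjusted p = 5.90e-08) on the log2 scale, followed in size by *Hk2* at -1.62 (SE 0.63, adjusted p = 0.0425), a call that was lost in 17 of 20 fits that leave out 1 library (all but those without VAD WT replicate 1, 3 or 5). Without VAD WT replicates 2 and 4 all 10 enzymes were called, and with only those 2 libraries the number was 7 (2 higher and 5 lower). *Aldoa* and *Pgk1* were not called in the latter (adjusted p = 0.137 and 0.0904, limma).

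**Figure D3:**
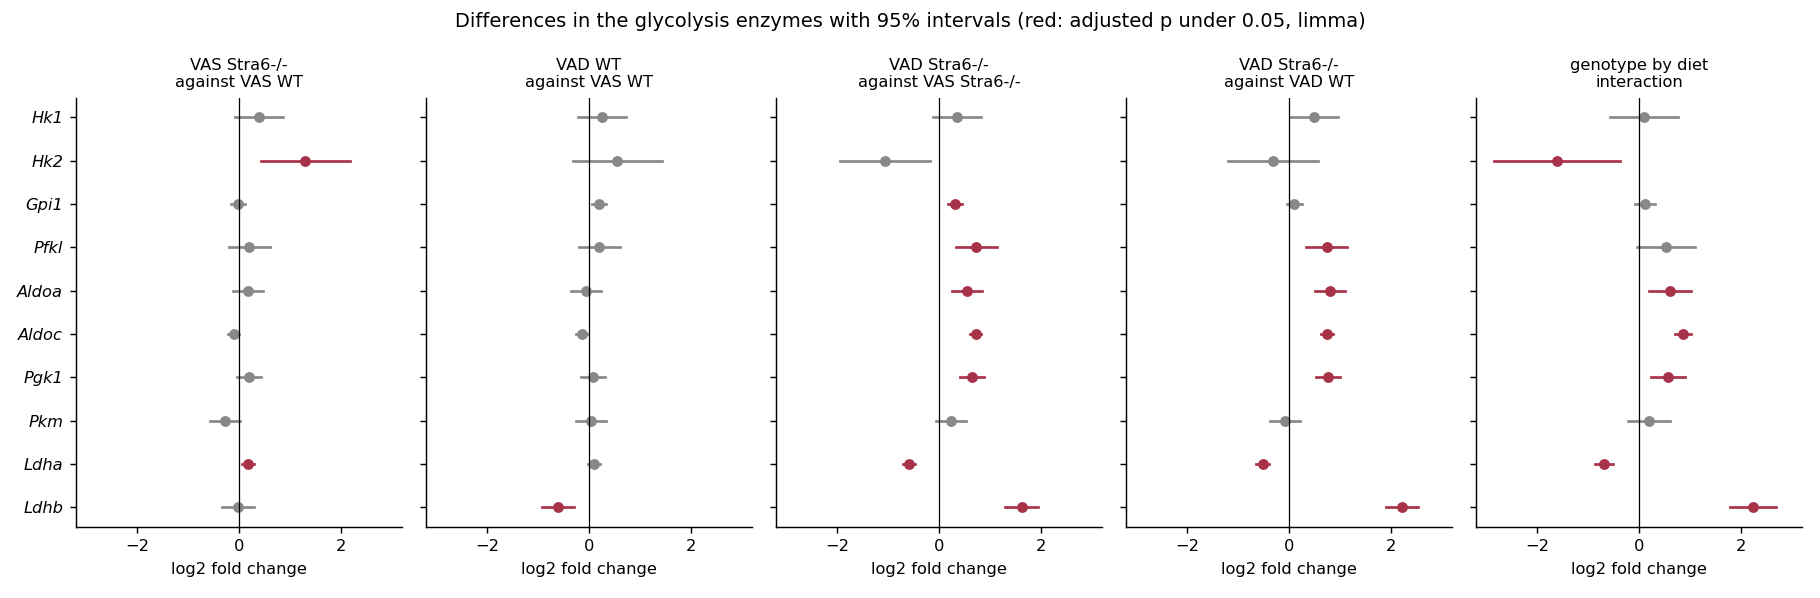
Log2 fold changes of the 10 enzymes (points) with 95% intervals (lines) in the 4 comparisons and the genotype by diet interaction, from limma with all 20 libraries; red marks an adjusted p under 0.05. *Ldhb* and *Ldha* lie on opposite sides of 0 in both comparisons with the libraries labelled as VAD *Stra6*-/-, at 1.62 and -0.60 against VAS *Stra6*-/-.

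At the entry of the pathway, the hexokinases *Hk1* (chr10:62268855-62379908, GRCm38) and *Hk2* (chr6:82725025-82774454) bind glucose in the cell by phosphorylation. *Hk2* had normalized values of 923, 857, 780.1, 753 and 923 in VAS WT and 2093, 2120.2, 2073, 2018 and 2104 in VAS *Stra6*-/-. In the libraries labelled as VAD *Stra6*-/- they were 988, 1036, 995, 1001 and 968. The VAS *Stra6*-/- libraries were all above both of those groups, without overlap, and VAS WT lay below the libraries labelled as VAD *Stra6*-/-. VAD WT had 615, 447 and 636 in replicates 1, 3 and 5 and 4142 and 4094 in replicates 2 and 4, which are the lowest and the highest values of the series. The difference between VAS *Stra6*-/- and VAS WT was 1.30 (SE 0.45, adjusted p = 0.035) in limma, with a 95% interval of 0.43 to 2.18. *Hk1* ranged over 2740.4 to 3472 in VAS WT, 3908 to 4236 in VAS *Stra6*-/- and 4821 to 5479.9 in the libraries labelled as VAD *Stra6*-/-, 3 ranges that did not overlap. VAD WT had 2458, 2379 and 2399 and, in replicates 2 and 4, 6656 and 7190.3. *Hk1* passed the test in none of the 4 comparisons, and its difference between the libraries labelled as VAD *Stra6*-/- and VAS *Stra6*-/- was 0.35 with a 95% interval of -0.12 to 0.82.

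*Gpi1* (chr7:34201330-34230336) encodes the isomerase that converts glucose 6-phosphate to fructose 6-phosphate, and *Pfkl* (chr10:77986947-78010083) the liver subunit of phosphofructokinase, which catalyses the committed step. *Gpi1* had 8542 to 9366 in VAS WT, 9415 to 11477 in VAD WT, 8531 to 8988 in VAS *Stra6*-/- and 10471 to 12318 in the libraries labelled as VAD *Stra6*-/-. Its rise in the last group against VAS *Stra6*-/- was 0.32 (SE 0.070, adjusted p = 0.000593), and between both VAS groups the difference was -0.017 with a 95% interval of -0.15 to 0.12. *Pfkl* was at 3318, 3001, 3258, 3424 and 3489.6 in VAS *Stra6*-/- and at 5461, 5023, 5570.4, 5256 and 6089 in the libraries labelled as VAD *Stra6*-/-, with no overlap and a difference of 0.73 (SE 0.21, adjusted p = 0.00484). VAS WT ranged over 2620.4 to 3023, and VAD WT had 2368, 2264 and 2272 in replicates 1, 3 and 5 but 5360.4 and 5884 in replicates 2 and 4, which lie within the range of the libraries labelled as VAD *Stra6*-/-.

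Aldolase cleaves fructose 1,6-bisphosphate into the trioses. *Aldoa* (chr7:126795234-126800751) is the form of muscle and of most cells, and *Aldoc* (chr11:78322968-78327781) that of neural tissue. *Aldoa* had 28065, 27567, 28773, 27061 and 29096 in VAS WT and 31335, 31481, 30586, 32716 and 33459 in VAS *Stra6*-/-. In the libraries labelled as VAD *Stra6*-/- it had 45946, 46340.3, 46038, 45207 and 50607, all above every other library of the series. Against VAS *Stra6*-/- the difference was 0.55 (SE 0.15, adjusted p = 0.00344). VAD WT had 21377, 21654 and 21489.7 in replicates 1, 3 and 5 and 38446 and 37559 in replicates 2 and 4. *Aldoc* differed little among the VAD WT libraries, which had 4386, 4757, 4577, 4996 and 4674. It had 5042, 4905, 5023, 5096 and 5624 in VAS WT, 4552 to 4885 in VAS *Stra6*-/- and 7755, 7683, 8259, 8072 and 7386 in the libraries labelled as VAD *Stra6*-/-. The last group was again above all other libraries, by 0.72 (SE 0.057, adjusted p = 7.56e-10) against VAS *Stra6*-/- and by 0.74 (SE 0.057, adjusted p = 4.45e-10) against VAD WT.

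*Pgk1* (chrX:106187100-106203699), which encodes the phosphoglycerate kinase of the first ATP-forming step, is X-linked. Its values were 4696, 4894, 5307, 5153 and 5327 in VAS WT and 5911, 5600.1, 5573, 5994 and 5919 in VAS *Stra6*-/-. VAD WT had 4353, 4380.0 and 4401 in replicates 1, 3 and 5 and 7218 and 7099.6 in replicates 2 and 4. With 9615, 8716, 8914, 8735 and 9146, the libraries labelled as VAD *Stra6*-/- were above all other libraries, by 0.64 (SE 0.12, adjusted p = 0.000132) against VAS *Stra6*-/- and 0.76 (SE 0.12, adjusted p = 1.68e-05) against VAD WT.

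*Pkm* (chr9:59656368-59679375) encodes pyruvate kinase, the last step to pyruvate, and its M1 and M2 splice forms cannot be told apart in values per gene. It ranged over 22862 to 24703 in VAS WT, 19027 to 20154 in VAS *Stra6*-/- and 21894 to 24821 in the libraries labelled as VAD *Stra6*-/-. VAD WT had 19011, 18912 and 19196 in replicates 1, 3 and 5 and 34103 and 34948 in replicates 2 and 4. *Pkm* passed the test in no comparison, with -0.27 (95% interval -0.56 to 0.023) between the VAS groups and 0.23 (95% interval -0.064 to 0.52) between the libraries labelled as VAD *Stra6*-/- and VAS *Stra6*-/-.

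Lactate dehydrogenase is a tetramer of subunits from *Ldha* (chr7:46841475-46855627) and *Ldhb* (chr6:142490249-142507957). *Ldhb* had 3348, 3296, 3648, 3697 and 3717 in VAS WT and 3500.3, 3392, 3512, 3644 and 3377 in VAS *Stra6*-/-, and these groups overlapped. The libraries labelled as VAD *Stra6*-/- had 10265, 10192, 10829, 9645 and 12762, each above the highest value of any other group, 3717. VAD WT had 1886, 1719.6 and 1716 in replicates 1, 3 and 5, below every other library, and 3511 and 3372 in replicates 2 and 4, within the range of VAS WT. Against VAS *Stra6*-/- the libraries labelled VAD *Stra6*-/- differed by 1.62 (SE 0.16, adjusted p = 2.28e-08) and against VAD WT by 2.21 (SE 0.16, adjusted p = 1.78e-10). VAD WT differed from VAS WT by -0.61 (SE 0.16, adjusted p = 0.0189), and by -0.039 (adjusted p = 0.757, limma) with replicates 2 and 4 alone.

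*Ldha* moved the other way. It had 10043, 10156, 10381, 10576 and 10497 in VAS WT and 11563, 11658, 11004, 12014 and 11937 in VAS *Stra6*-/-, which did not overlap. VAD WT had 10416, 11404, 10573, 12259.7 and 10704. In the libraries labelled as VAD *Stra6*-/- it had 7689, 7391, 7779, 7593 and 8046, below all other libraries, with a difference of -0.60 (SE 0.062, adjusted p = 4.17e-08) from VAS *Stra6*-/- and of -0.52 (SE 0.062, adjusted p = 2.90e-07) from VAD WT. The rise of *Ldha* in VAS *Stra6*-/- over VAS WT was small, at 0.17 (SE 0.062, adjusted p = 0.0449), and was lost in 13 of 23 alternative fits (adjusted p up to 0.385).

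Ratios between isozymes within a library do not depend on its size factor. The log2 ratio of *Ldha* to *Ldhb* was 1.55 ± 0.055 (SD, n = 5) in VAS WT, 2.26 ± 0.44 in VAD WT, 1.74 ± 0.066 in VAS *Stra6*-/- and -0.47 ± 0.12 in the libraries labelled as VAD *Stra6*-/-. Reads of *Ldhb* thus outnumbered those of *Ldha* in all 5 libraries of the last group, where the ratio ranged over -0.67 to -0.35, and in no library of the other 3. The ratio differed there from VAS *Stra6*-/- by -2.21 (exact permutation p = 0.00794, adjusted p = 0.0136) and from VAD WT by -2.73 (exact permutation p = 0.00794, adjusted p = 0.0136), with two-sided tests adjusted over 12 (3 ratios in 4 comparisons). With 5 libraries against 5, 0.00794 is the smallest p such a test can give. VAD WT exceeded VAS WT by 0.71 (exact permutation p = 0.00794, adjusted p = 0.0136) and VAS *Stra6*-/- exceeded VAS WT by 0.19 (exact permutation p = 0.00794, adjusted p = 0.0136), both with separate ranges. From VAD WT replicates 2 and 4 alone the excess over VAS WT was 0.23, against the 0.711 of all 5.

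The log2 ratio of *Hk1* to *Hk2* was 1.86 ± 0.15 (SD, n = 5) in VAS WT and 0.95 ± 0.050 in VAS *Stra6*-/-, a difference of -0.91 (exact permutation p = 0.00794, adjusted p = 0.0136). In the libraries labelled as VAD *Stra6*-/- it was 2.36 ± 0.10, above VAS *Stra6*-/- by 1.41 (exact permutation p = 0.00794, adjusted p = 0.0136) without overlap. VAD WT, at 1.56 ± 0.77, spanned 0.68 to 2.41 and had an adjusted p of 0.495 against VAS WT and of 0.0529 from the libraries labelled as VAD *Stra6*-/- (exact permutation tests), neither past the threshold. For *Aldoa* to *Aldoc* the ratio was 2.74 ± 0.037 in VAS *Stra6*-/- against 2.45 ± 0.061 in VAS WT, a difference of 0.29 (exact permutation p = 0.00794, adjusted p = 0.0136). The libraries labelled as VAD *Stra6*-/- had 2.58 ± 0.12, and the difference from VAS *Stra6*-/- of -0.16 (exact permutation p = 0.0397, adjusted p = 0.0529) did not pass after adjustment. Both aldolases rose in that comparison, by 0.55 and 0.72 on the log2 scale. Without VAD WT replicates 2 and 4 the *Aldoa* to *Aldoc* ratio of VAD WT differed from that of VAS WT by -0.21 (adjusted p = 0.0476, exact permutation test).

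**Figure D4:**
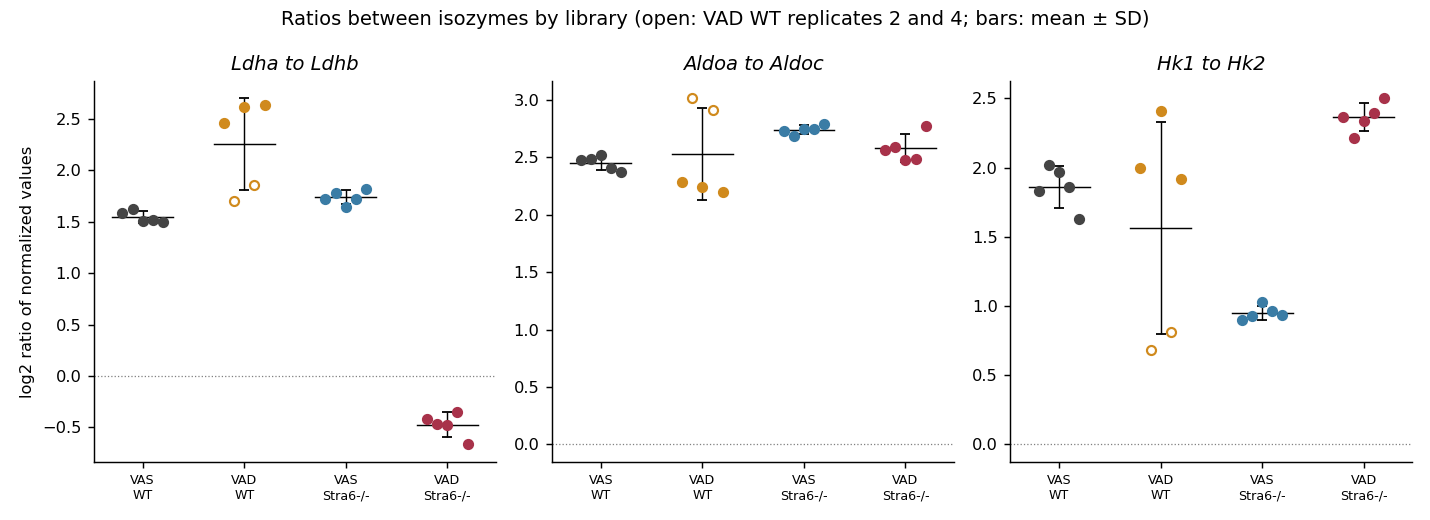
Log2 ratios of normalized values between isozyme pairs in each library, with group means and SDs; the dotted line marks equal values. *Ldha* to *Ldhb* lies below 0 in the libraries labelled as VAD *Stra6*-/- alone (-0.67 to -0.35), and *Hk1* to *Hk2* is lowest in VAS *Stra6*-/- and in VAD WT replicates 2 and 4.

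The rest of the pathway was read from a list of 19 further enzymes and isozymes, of which 16 were tested. In VAS *Stra6*-/- against VAS WT, 2 of them were called higher and 4 lower, beside 15.9% and 10.8% of all genes. Of the muscle forms, *Pgam2* (phosphoglycerate mutase) rose there by 0.97 (SE 0.17, adjusted p = 0.000178) and *Eno3* (enolase) by 0.82 (SE 0.080, adjusted p = 1.80e-07), beside 14 of 15 skeletal muscle markers called higher. *Pfkm*, the muscle subunit of phosphofructokinase, was not called (0.24, adjusted p = 0.0877, limma). The hexokinase genes *Hkdc1* and *Hk3* fell, with -0.96 and -0.96. In VAD WT against VAS WT *Pfkp*, the platelet subunit of phosphofructokinase, rose (0.40) and *Pgam2* fell (-0.91), beside 10 of 15 muscle markers called lower. *Eno3* was not called there (0.048, adjusted p = 0.782, limma). Of all genes, 3.29% were called higher and 5.5% lower. Between the libraries labelled as VAD *Stra6*-/- and VAS *Stra6*-/-, 5 were higher and 3 lower, beside 24.4% and 28.8% of all genes. *Hk3*, the hexokinase of myeloid cells, rose by 2.12 (SE 0.28, adjusted p = 1.18e-06) beside all 10 macrophage markers. *Bpgm*, which makes 2,3-bisphosphoglycerate in red cells, rose by 1.14 (SE 0.16, adjusted p = 2.71e-06). Erythrocyte marker sums were 13040.3 to 14681 in VAS *Stra6*-/- and 21917 to 31284 in the libraries labelled as VAD *Stra6*-/-. None of the 6 erythrocyte markers was called. Between the VAS groups *Bpgm* was not called (0.070, adjusted p = 0.795, limma), beside sums of 5880 to 6695 in VAS WT. VAD WT replicates 2 and 4 had the highest sums (44924 to 45441), with *Bpgm* at 1340 and 1308, below 1499 to 1795 in the libraries labelled as VAD *Stra6*-/-. Against VAD WT, 7 were higher and 4 lower in the libraries labelled as VAD *Stra6*-/-, beside 26.2% and 29.6% of all genes. *Hk3* (1.65) was higher here as it was against VAS *Stra6*-/-, with shared libraries. In the interaction 5 were positive and 3 negative, among them *Hk3* (2.61) and *Hkdc1* (1.12), beside 19.5% and 24.8% of all genes.

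*Eno1*, the general enolase, was called higher in the libraries labelled as VAD *Stra6*-/- than in VAD WT (1.59 (SE 0.36, adjusted p = 0.000625)), but its reads are uncertain because *Eno1b* is a near copy. *Eno1b* had 5341 to 8278 in VAS WT, 10989.9, 10722 and 11515 in VAD WT replicates 1, 3 and 5, 90.6 and 72.8 in replicates 2 and 4, 61 to 3839 in VAS *Stra6*-/- and 76.7 to 99.8 in the libraries labelled as VAD *Stra6*-/-. The sum of both genes was 19667 to 20939 in VAS WT and 20274 to 21546 in VAS *Stra6*-/-, which overlapped, whereas *Eno1* alone had 14114 ± 973 and 19997 ± 1488 (SD, n = 5 each). In the libraries labelled as VAD *Stra6*-/- the sum was 31283 to 36559, above all other libraries, with a ratio of means of 1.55 to VAS *Stra6*-/- and of 1.54 to VAD WT, where *Eno1* alone had a ratio of 2.24.

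Of 13 regulators of glycolysis (the PFKFB enzymes, *Tigar*, *Myc* and the genes of HIF and of its hydroxylases), 4 were called higher and 0 lower (likewise 0 lower by edgeR, DESeq2 or an unadjusted p under 0.05) in VAS *Stra6*-/- against VAS WT. The shares of all genes were 15.9% higher and 10.8% lower. *Myc*, a transcription factor that activates many glycolytic genes, rose by 1.43 (SE 0.12, adjusted p = 4.31e-08). *Pfkfb3*, which raises the phosphofructokinase activator fructose 2,6-bisphosphate, rose by 0.96, *Epas1* (HIF-2α) by 0.51 and *Egln1* by 0.41. None of the 13 was called in VAD WT against VAS WT by limma or edgeR, 1 by DESeq2, and 3 had an unadjusted p under 0.05 in limma. Limma called 3.29% of all genes higher and 5.5% lower there. Between the libraries labelled as VAD *Stra6*-/- and VAS *Stra6*-/-, 3 were higher and 8 lower, beside 24.4% and 28.8% of all genes. *Egln3*, the prolyl hydroxylase that marks HIF for destruction and is itself induced by hypoxia, had 9703 to 10492 in VAS *Stra6*-/- and 257 to 292 in the libraries labelled as VAD *Stra6*-/-, a difference of -5.18 (SE 0.27, adjusted p = 8.81e-13). Surface epithelium markers fell in the same comparison (14 of 14, from 884023 to 916461 to 23044 to 30283 in sum). *Myc* (-1.94), *Pfkfb4* (-1.71) and *Pfkfb2* (-0.99) fell as well. Against VAD WT 4 were higher and 4 lower, beside 26.2% and 29.6% of all genes. Among them were *Egln3* (-4.78), *Pfkfb4* (-1.66), *Pfkfb1* (-1.19) and, on the high side, *Hif1a* (1.08). The interaction called 3 positive and 6 negative, led by *Egln3* (-5.44), *Myc* (-2.12), *Pfkfb4* (-1.67) and *Pfkfb3* (-0.96), beside 19.5% and 24.8% of all genes.

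The entry of pyruvate into mitochondria was followed with 14 genes of the pyruvate carrier, pyruvate carboxylase, the pyruvate dehydrogenase complex and its kinases (PDK, which switch it off) and phosphatases (PDP, which switch it on). In VAS *Stra6*-/- against VAS WT 4 rose and 0 fell (0 also by edgeR, DESeq2 or an unadjusted p under 0.05), beside 15.9% and 10.8% of all genes. *Pdk4* rose most, by 2.39 (SE 0.30, adjusted p = 4.12e-06), from 43.2 to 89.8 to 304 to 453, and *Pdp2* (1.08), *Pdha1* (0.36) and *Pcx* (0.29) followed. In VAD WT *Pcx*, pyruvate carboxylase, fell (-0.39). Of this list 0 genes rose by limma, 1 by edgeR and 2 by DESeq2 or an unadjusted p under 0.05. Limma called 3.29% of all genes higher and 5.5% lower there. Between the libraries labelled as VAD *Stra6*-/- and VAS *Stra6*-/- 8 rose and 1 fell, beside 24.4% and 28.8% of all genes. The median log2 fold change was 0.35, against -0.066 for all genes. *Dld*, the shared dehydrogenase subunit, rose by 0.61 (SE 0.061, adjusted p = 2.55e-08), the kinases *Pdk3* and *Pdk2* rose by 1.21 and 0.77, and *Pdp2* fell (-2.19). Against VAD WT 8 were higher and 3 lower, with *Pdk4* (1.82), *Pdk3* (1.59) and *Pcx* (1.07) highest and *Pdp2* (-1.17) lowest. The shares of all genes were 26.2% higher and 29.6% lower. Interactions were positive for 6 and negative for 2, among them *Pdp2* (-2.26), *Pdk3* (1.38), *Mpc2* (-0.90) and *Pdk2* (0.83), beside 19.5% and 24.8% of all genes.

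The members fell into patterns across the 20 libraries that can be described by the genes most like them, among 12299 genes with a mean value of at least 100. The measure was Pearson's r of log2(value + 1), given without a test because the libraries form 4 groups, share the size factor scaling, and include 2 VAD WT libraries that stood apart. *Ldhb* was most like *Rlbp1* (r = 0.996), *Islr* (r = 0.993) and *Fuca1* (r = 0.992), of which *Rlbp1* encodes the retinal-binding protein of RPE and Müller glia. For *Ldha* the nearest were *Mical3* (r = 0.981), *Cyp2a5* (r = 0.974) and *Hmgn1* (r = 0.965), and for *Hk2* *Vwf* (r = 0.963), *Rbp3* (r = 0.940) and *Per1* (r = 0.936), where *Rbp3* is a photoreceptor gene and *Vwf* an endothelial one. *Hk1* was most like *Svep1* (r = 0.971), *Ttc3* (r = 0.970) and *Hbb-b1* (r = 0.969), the last a hemoglobin gene. *Pfkl* and *Gpi1* had collagens among their nearest genes: *Col12a1* (r = 0.982), *Axl* (r = 0.978) and *Gas6* (r = 0.976) for *Pfkl*, *Col16a1* (r = 0.939), *Atf5* (r = 0.930) and *Col1a2* (r = 0.929) for *Gpi1*. *Aldoa* was nearest to *Fkbp9* (r = 0.991), *Thbs1* (r = 0.990) and *Sepp1* (r = 0.989) and *Aldoc* to *Rhobtb2* (r = 0.991), *H2-Aa* (r = 0.987) and *Rhoc* (r = 0.984), which include the antigen-presentation gene *H2-Aa*. *Pgk1* was nearest to *Got1* (r = 0.991), *Lbp* (r = 0.988) and *Chil1* (r = 0.988), *Got1* being the cytosolic aspartate aminotransferase, and *Pkm* to *Ppp2r2b* (r = 0.929), *Unc119* (r = 0.928) and *Khdrbs3* (r = 0.925). Among the members, *Aldoa* and *Pgk1* had an r of 0.978, *Hk1* and *Pfkl* 0.937, and *Ldha* and *Aldoc* -0.919.

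**Figure D5:**
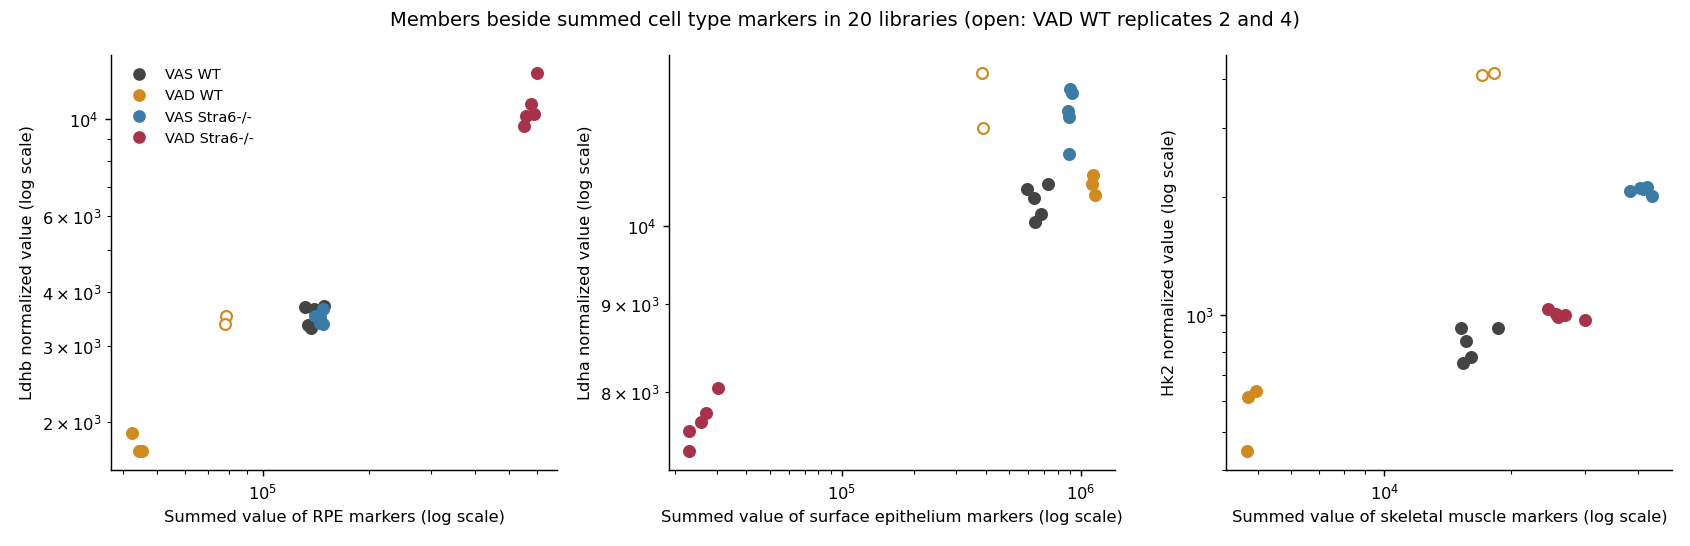
Normalized values of *Ldhb*, *Ldha* and *Hk2* (vertical, log scale) against summed values of RPE, surface epithelium and skeletal muscle markers (horizontal, log scale), 1 point per library. *Ldhb* and the RPE markers are both highest in the libraries labelled as VAD *Stra6*-/- (551705 to 601089) and lowest in VAD WT replicates 1, 3 and 5 (42454 to 45279). *Ldha* and the surface epithelium sums are both lowest in the libraries labelled as VAD *Stra6*-/-. Among the VAD WT libraries they do not rise together. Replicates 2 and 4 have *Ldha* at 11404 and 12259.7, the latter the highest of the series, with surface sums of 386654 to 388630. Replicates 1, 3 and 5 have *Ldha* at 10416 to 10704 with surface sums of 1110429 to 1144417. *Hk2* is highest in 2 libraries with muscle sums of 17052 to 18152.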

How the data were processed

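RNA of the outer eyecup (RPE–choroid) was sequenced in 20 libraries, 5 for each of VAS WT, VAD WT, VAS *Stra6*-/- and VAD *Stra6*-/-, grouped by the genotype and diet in the labels. Per the labels and the methods of the study, poly(A) libraries were sequenced on a NovaSeq, aligned to GRCm38/mm10 with STAR 2.5.3a, and genes were counted with RSEM 1.2.30. The authors deposited a signal per gene, not raw counts: whole reads scaled by a DESeq2 1.32.0 size factor, with no correction for length. In 19 libraries 100% of values lay within 0.1 of a whole multiple of the smallest step, from which reads were recovered; for 1 further library (replicate 1 labelled as VAD *Stra6*-/-) the step was too near 1 to claim this, and that library was left out of the tests on reads. Comparisons used limma 3.58.1 (R 4.3.3) on log2(value + 1), fitting all 20 libraries as 4 group means, with an intensity trend and Benjamini-Hochberg adjustment over the 18807 of 24411 genes with at least 5 reads in total; a gene was called at an adjusted p under 0.05. Fold changes of low genes are understated by the added 1. The depth of 13331903 to 21878614 reads per library (median 17785927) keeps counting error small for the members, whose lowest group mean was 847 in normalized value. Isozyme log2 ratios were compared with exact two-sided permutation tests (SciPy 1.17.1), adjusted over 12 tests.

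By the study's methods each replicate is 1 mouse, which the sex-linked transcripts of the VAD libraries leave unsettled. No pair of libraries of a group agreed within counting noise. Alternatives were edgeR 4.0.16 and DESeq2 1.42.0 on recovered reads of 19 libraries, TMM and upper quartile rescaling, other filters and pseudocounts, only the groups compared, a replicate block, a log2 fold change beyond 1, leaving out VAD WT replicates 2 and 4 and each library in turn; the fit with VAD WT replicates 2 and 4 only was added after the data were seen. The fits were tested on simulated data. The members and the 18 gene lists were chosen with earlier results of these data known. Named genes are all 10 members, at most 4 called genes per pathway list and comparison with the largest change, and the 3 genes most like each member. Positions are from GENCODE vM21 (GRCm38; where 2 genes share a symbol, the one that overlaps the RefSeq gene), promoters from RefSeq GRCm38.p6. Some genes that this rule names are not reported here. Protein sequences were not used here.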

Additional observations from a re-analysis of the deposited data

Results flagged for a closer look

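For 2 of 52 group and measure combinations (10 enzymes and 3 ratios in 4 groups), 1 library lay far from the other 4 by Dixon's criterion, whose 95% critical value is 0.71 for groups of 5 and which flags about 1 in 20 by chance. *Aldoa* was at 50607 in replicate 5 of the libraries labelled as VAD *Stra6*-/-, where the other 4 ranged from 45207 to 46340.3, and its gap to the nearest was 0.79 of the range. *Aldoc* was at 5624 in replicate 5 of VAS WT, where the other 4 ranged from 4905 to 5096, with a gap of 0.734. Leaving out the library concerned changed no call for that gene.

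The difference between the diets was not the same in both labelled genotypes for 6 enzymes by the interaction test (limma, log2 scale): *Hk2* at -1.62, *Aldoa* at 0.61, *Aldoc* at 0.85, *Pgk1* at 0.57, *Ldha* at -0.69 and *Ldhb* at 2.23. Adjusted p-values ran from 2.22e-08 for *Aldoc* to 0.0425 for *Hk2*. RPE and surface epithelium markers had interactions as well (11 of 12 positive and 14 of 14 negative), and *Stra6* does not follow the labels in the libraries labelled as VAD *Stra6*-/- or in 3 of 5 VAD WT libraries; their part in the 6 interactions was not tested.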

How the results depend on the processing

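Of the 22 calls among 50 member and comparison pairs, 3 held under every alternative (*Ldhb* in both comparisons with the libraries labelled as VAD *Stra6*-/- and in the interaction), and 12 others were lost only when a log2 fold change beyond 1 was also asked for. With that rule the enzymes called numbered 1, 0, 1, 1 and 2 in the order VAS *Stra6*-/- against VAS WT, VAD WT against VAS WT, the libraries labelled as VAD *Stra6*-/- against VAS *Stra6*-/-, the same against VAD WT, and interaction. For VAS *Stra6*-/- against VAS WT, TMM rescaling and edgeR each left 1 call, and only the groups compared, or VAD WT without replicates 2 and 4 or without 1, 3 and 5, gave 8 calls. VAD WT against VAS WT had 0 calls with only its groups or by edgeR, 2 by DESeq2 and 8 with either part of VAD WT. The comparison of the libraries labelled as VAD *Stra6*-/- with VAD WT and the interaction each had 10 calls without replicates 2 and 4. Leaving out 1 library at a time, the counts were 0 to 1, 0 to 1, 7 to 7, 6 to 7 and 5 to 6 in the order above. In the first comparison each of the 10 libraries lowered the count from 2, and in the second VAD WT replicates 3 and 5 lowered it from 1 to 0. The *Hk2* interaction was lost in 17 of 20 such fits.

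Among results past the threshold in either fit, directions reversed only between the parts of VAD WT. Without replicates 2 and 4, log2 fold changes against VAS WT became *Hk1* -0.35, *Hk2* -0.59, *Pfkl* -0.31, *Pgk1* -0.21 and *Pkm* -0.30, those of the libraries labelled as VAD *Stra6*-/- against VAD WT became *Hk2* 0.83 and *Pkm* 0.26. With replicates 2 and 4 alone they became *Aldoa* 0.44 against VAS WT, *Hk1* -0.43 and *Pfkl* -0.038 for the libraries labelled as VAD *Stra6*-/- against VAD WT, and *Hk1* -0.82, *Pfkl* -0.24 and *Pkm* -0.33 for the interaction. The *Aldoa* to *Aldoc* ratio of VAD WT against VAS WT was -0.21 and that of the libraries labelled as VAD *Stra6*-/- against VAD WT 0.34 without replicates 2 and 4 (both now past the threshold) and the latter -0.38 with them alone. *Hk1* to *Hk2* became 0.25 for VAD WT against VAS WT. *Ldha* to *Ldhb* was 0.23 and -2.25 in both comparisons with VAD WT replicates 2 and 4 alone, where 2 libraries against 5 allow no p under 0.0952. With 1 library left out the *Aldoa* to *Aldoc* ratio ranged over -0.043 to 0.16 for VAD WT against VAS WT, -0.21 to -0.14 for the libraries labelled as VAD *Stra6*-/- against VAS *Stra6*-/- and -0.033 to 0.17 against VAD WT, and *Hk1* to *Hk2* over 0.58 to 1.01 for the last. The second of these passed without replicate 5 of the libraries labelled as VAD *Stra6*-/-, and the last without VAD WT replicate 3.

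Replicate numbers are shared by the groups but do not pair the libraries: of 30 same-numbered pairs 3 had a correlation of deviations above 0.1 (median 0.0117), and 3 of 20 libraries were most like one of their own number. With the replicate number as a block the enzymes called were 1, 1, 8, 6 and 6. Sign flips over 5 pairs allow no p under 0.0625, so the ratios keep their values and pass nowhere: *Ldha* to *Ldhb* 0.19, 0.71, -2.21 and -2.73 in the 4 comparisons, *Aldoa* to *Aldoc* 0.29 in the first, and *Hk1* to *Hk2* -0.91 and 1.41 in the first and the third. Upper quartile rescaling moved the median of all genes by at most 0.11 (interaction).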

Other observations

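Pathways that branch from glycolysis were counted in the same way. Of 9 genes of the pentose phosphate pathway, which draws on glucose 6-phosphate, 1 was called higher and 5 lower in the libraries labelled as VAD *Stra6*-/- against VAS *Stra6*-/-, beside 24.4% and 28.8% of all genes, with a median log2 fold change of -0.66 where that of the 10 enzymes was 0.45. The summed value of the 9 genes was 52037 to 61853 in VAS WT, 110484 to 113564 in VAD WT replicates 1, 3 and 5, 40743 to 40984 in replicates 2 and 4, 71544 to 77508 in VAS *Stra6*-/- and 22285 to 26992 in the libraries labelled as VAD *Stra6*-/-. *Tkt*, transketolase, which the mouse cornea holds in very large amounts, had -2.53 (SE 0.28, adjusted p = 9.29e-08) and was named after its values were seen. The sums of the surface epithelium markers were in the same order over these 5 sets of libraries, and their part was not tested. *G6pdx*, the first enzyme of the pathway, also named after its values were seen, had -1.55 (SE 0.12, adjusted p = 7.13e-10).

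Of 7 gluconeogenesis genes 2 were higher and 3 lower in the same comparison, near the 24.4% and 28.8% of all genes. Of 14 targets of HIF outside glycolysis 7 were higher and 1 lower in VAS *Stra6*-/- against VAS WT, beside 15.9% and 10.8% of all genes, and 5 higher and 3 lower in the libraries labelled as VAD *Stra6*-/- against VAS *Stra6*-/-, beside 24.4% and 28.8% of all genes in the latter.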
